A study of Mus musculus with 2 samples.

Results

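In tumours of inbred C57BL/6 mice, 321 of the sorted lymphocytes carried CD8 T cell transcripts together with several genes of the interferon response. They were chosen from 21021 kept cells, of which 10758 passed a CD8 T cell gate, and 72 lay in the library labelled WT (wild type) and 249 in the Dapl1-KO-labelled library (Dapl1-deficient). The gate asked for at least 1 unique molecular identifier (UMI, 1 counted transcript) of Cd8a or Cd8b1 and of a CD3 gene, with none of Cd4 or Foxp3. Of the gated cells, those with at least 3 of 7 genes detected were chosen (Ifit1, Ifit3, Ifit3b, Rsad2, Usp18, Oasl1 and Isg15), and these 7 are called the rule genes. The levels of the rule genes and every ratio between the chosen cells and other CD8 cells of the same library describe cells that were picked by expression, so they carry no test. Both libraries held cells positive for CD45 and CD90.2, and the study asked how T cells in tumours differ without Dapl1. How many animals or tumours were pooled, the tumour model, and the ages of the mice are not stated in the labels. There was 1 library for each label, so no difference between the labels has a replicate check. All intervals are exact 95% intervals of counting error, except the interval of a difference between shares, which is a Newcombe interval.

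Type I interferons bind a receptor made of IFNAR1 and IFNAR2, whose kinases switch on a complex that holds STAT2 and IRF9. The complex binds interferon-stimulated response elements and switches on genes that limit viruses, many of which, such as Irf7 and Irf9, also feed the response. Interferon gamma, which activated CD8 T cells secrete, acts through another receptor and induces guanylate-binding proteins and antigen presentation. T cells with this programme are regularly seen in single-cell surveys of tumours, and macrophages of the same tissue respond to interferon too.

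The label was checked against markers of other cell types, and many of the chosen cells also held macrophage transcripts. Of the chosen cells, 39 of 72 (54.2%, interval 42.0 to 66.0) in the WT-labelled library and 108 of 249 (43.4%, interval 37.1 to 49.8) in the Dapl1-KO-labelled library had at least 2 UMIs of 8 macrophage genes (Lyz2, C1qa, C1qb, C1qc, Csf1r, Apoe, Cd14 and Fcer1g). Among up to 3 other CD8 cells per chosen cell with the nearest total UMIs, called matched cells below, those shares were 18.1% (of 216 cells) and 24.5% (of 747 cells). With at least 10 such UMIs the shares were 44.4% and 32.5% of chosen cells against 6.48% and 12.3% of matched cells. Summed over a list of 9 macrophage genes, which adds Adgre1, the level was 2472 counts per 1000000 UMIs (CPM) in chosen cells against 345 in matched cells of the WT-labelled library, and 1220 against 377 in the Dapl1-KO-labelled library. Fcer1g is also expressed by some T and NK cells, and 3 and 29 chosen cells reached 2 UMIs only through it. Without it, 36 of 72 and 79 of 249 chosen cells reached 2 UMIs, against 6.94% of matched cells in the WT-labelled library. Of the 9 genes, 7 reached 50 CPM in chosen or matched cells of each library. All 7 were at least 1.5-fold higher in the chosen cells, as were 12% and 7.12% of all genes at that level. Only 2 of the 9 reached 50 CPM in matched cells of either library, so most entered this count through the chosen cells. The doublet caller Scrublet called 0 cells by its own threshold. Its highest scores were therefore marked at a set rate, which took 8.65% and 9.73% of all kept cells. These marks fell on 15.3% and 18.1% of chosen cells against 9.72% and 7.90% of matched cells. The name "interferon-stimulated CD8 T cells" therefore covers all 321 cells only by the rule. The results below are given for all chosen cells and for the 33 and 141 with under 2 macrophage UMIs, called macrophage-low, whose matched cells (99 and 423) were held to the same limit. Of the list of 9 macrophage genes, macrophage-low chosen cells held 2 in the WT-labelled library and 7 in the Dapl1-KO-labelled library. These were seen in 9.09% and 20.6% of cells. The limit itself keeps 8 of the 9 genes low, so their levels here check nothing. Adgre1, which the limit does not use, was at 0 in both libraries, and no neutrophil gene of 4 was detected. Gamma-delta T cell genes summed to 42.1 CPM in macrophage-low chosen and 3.99 in matched cells of the WT-labelled library. Of those 21 UMIs, 1 chosen cell held 20. In the Dapl1-KO-labelled library they were at 20.6 and 30.1 CPM. Dendritic cell genes were at 8.01 and 6.65 CPM and at 3.05 and 0.524 CPM. NK cell genes were at 72.1 and 76.5 and at 46.6 and 46.7 CPM, and regulatory T cell genes at 162 and 190 and at 258 and 210 CPM.

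**Figure D1:**
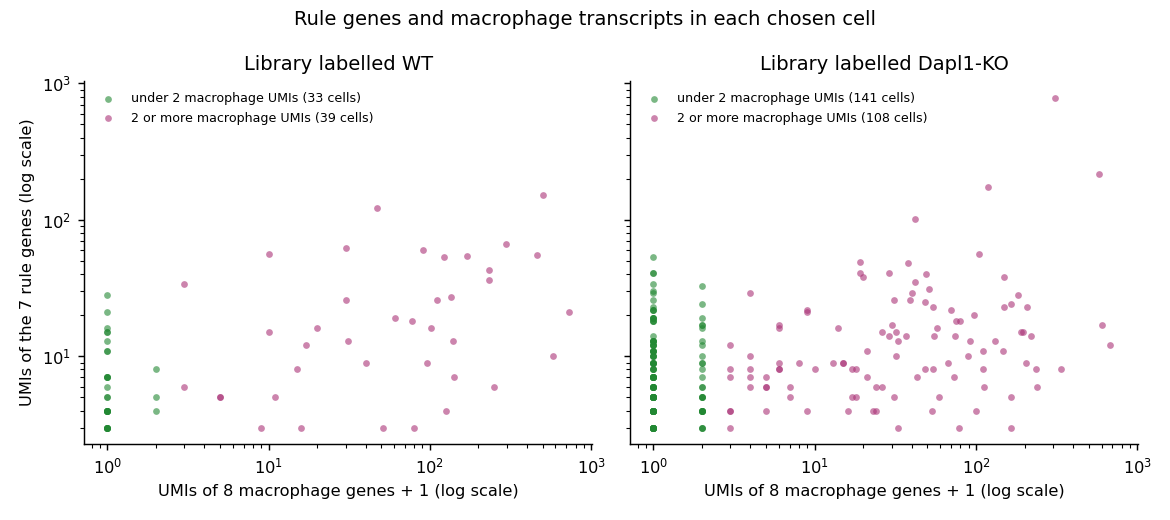
Each point is 1 chosen cell; the x axis gives its UMIs of 8 macrophage genes plus 1 and the y axis its UMIs of the 7 rule genes, both on log scales, for the WT-labelled library (72 cells) and the Dapl1-KO-labelled library (249 cells). In both libraries the cells with 2 or more macrophage UMIs reach further up (to 152 and 788 rule UMIs) than the macrophage-low cells, which lie at the left edge.

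Fibroblast transcripts came mostly from 1 chosen cell of each library. Of 6320 UMIs of 8 fibroblast genes (Col1a1, Col1a2, Col3a1, Dcn, Postn, Sparc, Fstl1 and Bgn, a list made after their values were seen), 1 cell of the WT-labelled library held 92.1%, and 1 cell of the Dapl1-KO-labelled library held 70.2% of 2162. The collagens lead the ranking of all chosen cells over matched cells, with Col1a1 at a log2 ratio of 10.15 and 6.79, while the macrophage-low chosen cells held 0 and 2 fibroblast UMIs. Melanocytic tumour genes were seen in 19.4% and 20.5% of chosen cells (8.33% and 20.3% of matched cells), and in the macrophage-low chosen cells they summed to 6.01 and 5.34 CPM. Such genes also stand at both ends of the comparison of all chosen cells between the labels: Dcn and Postn, of the fibroblast list, had the lowest log2 ratios of the list (-9.16 and -5.52, Dapl1-KO over WT), and Pmel, a melanocytic gene, was at 23.9 and 339 CPM (3.83). The macrophage-low chosen cells held no UMI of Dcn or Postn and 2 and 3 UMIs of Pmel.

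The libraries differed in ways that coincide with the label. Kept cells numbered 9865 and 11156, and 13132 barcodes occurred in both libraries, of which only a copy with at least 2 times the UMIs of the other was kept. Of the chosen cells, 61 and 177 came from such barcodes. Cells with Xist and no Y-linked UMI made up 69.4% of chosen cells in the WT-labelled library and 0.402% in the Dapl1-KO-labelled library, and cells with a Y-linked UMI and no Xist made up 8.33% and 75.5%, so label, library and the sex of most cells cannot be told apart. Dapl1 itself was counted in both libraries, at 29.6 and 24.2 CPM over all kept cells. In the chosen cells it had 84 UMIs in 23 of 72 cells (41.0 CPM) and 103 UMIs in 22 of 249 cells (15.2 CPM). The deleted part of the gene is not named, and a 3′ count outside a deleted part checks nothing, so the genotypes stand as labelled. The chosen cells were deep, with medians of 17597.5 and 16727 UMIs against 10203 and 12267.5 in the other gated CD8 cells, and the 10 deepest held 50.4% and 21.4% of their UMIs. The macrophage-low chosen cells had medians of 10355 and 9816 UMIs, and the deepest of them held 23.2% of the UMIs in the WT-labelled library and 5.87% in the Dapl1-KO-labelled library.

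CD8 cells meeting the rule were more frequent in the Dapl1-KO-labelled library. They were 72 of 4761 gated CD8 cells in the WT-labelled library (1.51%, interval 1.19 to 1.90) and 249 of 5997 in the Dapl1-KO-labelled library (4.15%, interval 3.66 to 4.69), a difference of 2.64 percentage points (2.03 to 3.26). With only macrophage-low cells on both sides, the shares were 0.797% (33 of 4142) and 2.93% (141 of 4811), a difference of 2.13 points (1.59 to 2.70). After each cell was thinned to 3000 UMIs, which leaves out 110 and 151 shallower cells, the expected shares were 0.377% and 1.03%, and the difference was 0.649 points (0.331 to 0.973). Both limits together left 0.207% and 0.913%. Among barcodes found in only 1 of the libraries the shares were 11 of 1571 and 72 of 2675 (2.69%). Among cells with a Y-linked UMI and no Xist, they were 0.893% (6 of 672) and 4.14% (188 of 4537). In all these settings the share was higher in the Dapl1-KO-labelled library, and no interval of a difference reached 0. These intervals hold for the cells of 2 libraries and say nothing about the spread between animals.

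The share was set beside the depth of the cells. Below 5000 UMIs, 1 of 612 gated cells (0.163%) and 23 of 783 (2.94%) met the rule, and at 50000 UMIs or more 10 of 215 (4.65%) and 32 of 305 (10.5%) did. Within macrophage-low cells the shares had no steady order with depth, at 0.174%, 0.958%, 1.26%, 0.266% and 0.730% and at 3.09%, 3.37%, 2.07%, 2.81% and 6.37% from the shallowest to the deepest range. The share was higher in the Dapl1-KO-labelled library in each of 5 depth ranges, although the intervals overlapped between 10000 and 20000 UMIs (1.26%, 0.689 to 2.10, against 2.07%, 1.38 to 2.98) and at 50000 UMIs or more (1 of 137 cells, against 10 of 157).

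**Figure D2:**
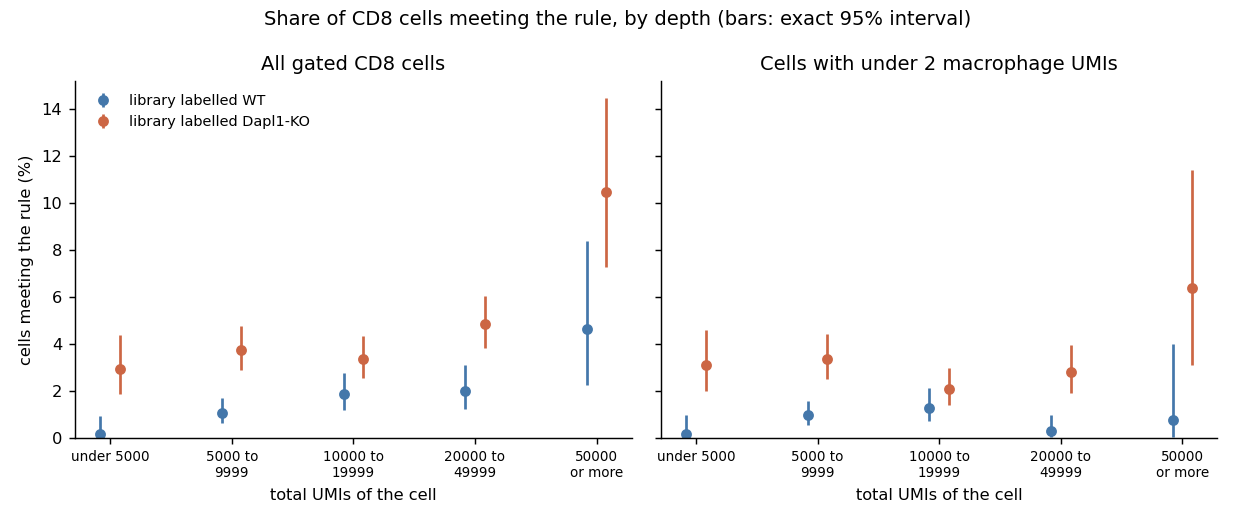
Points give the percentage of gated CD8 cells that met the rule in 5 ranges of total UMIs (x axis) in each library, with bars for the exact 95% interval, for all gated cells (left) and macrophage-low cells (right). The library labelled Dapl1-KO lies above the WT-labelled library in every range, and at 50000 UMIs or more the shares among all gated cells are 4.65% and 10.5%.

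Just inside the limit of 3 rule genes were 37 and 148 cells with exactly 3 detected, at a median of 4 and 5 rule UMIs. Just outside it were 174 and 481 cells with 2 detected, at a median of 2 and 3 rule UMIs. Of the cells with more than 3, 35 and 101 in number, none of the WT-labelled library and 2 of the Dapl1-KO-labelled library had all 7. The 10 cells with most rule UMIs held 53.8% of 1346 rule UMIs in the WT-labelled library and 38.2% of 4109 in the Dapl1-KO-labelled library.

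Isg15, which encodes a ubiquitin-like protein that is attached to other proteins, was the rule gene found in most chosen cells. It was detected in 66 of 72 (91.7%) and 230 of 249 (92.4%), with a median of 2 and 3 UMIs per cell and up to 100 and 131. It was also the rule gene that other CD8 cells most often held, with a UMI in 22.7% and 30.3% of matched cells. Its level was 266 CPM in chosen and 13.0 in matched cells of the WT-labelled library, and 230 and 24.8 in the Dapl1-KO-labelled library. Ifit1 and Ifit3 encode proteins with tetratricopeptide repeats, of which IFIT1 binds foreign RNA ends. Ifit1 was found in 61.1% and 74.7% of chosen cells against 3.24% and 7.10% of matched cells, at 76.1 and 96.6 CPM. Ifit3 was found in 68.1% and 67.1% of chosen cells, at 64.9 and 75.1 CPM. Its near-identical neighbour Ifit3b was found in 19.4% and 24.1%, and reads that both genes share may have been split or dropped, so the levels of the pair are uncertain. Rsad2 encodes viperin, an enzyme that makes a chain-terminating nucleotide. It was found in 55.6% and 52.2% of chosen cells, at 180 and 155 CPM, and 1 cell of the Dapl1-KO-labelled library held 419 of 1056 UMIs. Usp18, which removes ISG15 from proteins and dampens receptor signalling, was found in 38.9% and 33.7%, at 25.4 and 17.7 CPM. Oasl1, a relative of the oligoadenylate synthetases that restrains translation of Irf7, was found in 41.7% and 21.7%, at 34.2 and 16.0 CPM.

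The makeup of the rule genes differed between chosen cells with and without macrophage transcripts. In the WT-labelled library, Rsad2 stood at 36.0 CPM in the macrophage-low chosen cells and at 226 CPM in the others, and in the Dapl1-KO-labelled library at 39.7 and 228 CPM. Oasl1 went the same way, with 6.11 and 22.3 CPM in the Dapl1-KO-labelled library, and with 16.0 CPM in the macrophage-low against 34.2 CPM over all chosen cells in the WT-labelled library. Ifit3 went the opposite way, with 112 and 49.7 CPM and with 116 and 49.3 CPM. Ifit3b also did, at 28.0 and 3.87 CPM and at 24.1 and 8.38 CPM. Per UMI of Isg15, Rsad2 had 0.231 UMIs in the macrophage-low chosen cells, 0.750 in the others and 0.763 in cells gated as macrophages in the WT-labelled library. In the Dapl1-KO-labelled library these values were 0.198, 0.919 and 1.53. There, 1 chosen cell with 306 macrophage UMIs held 419 of the 952 Rsad2 UMIs and 131 of the 1036 Isg15 UMIs of its group. The values of 228 CPM and 0.919 therefore rest in large part on that cell. The commonest set of detected genes was Ifit3, Usp18 and Isg15 among macrophage-low chosen cells of the WT-labelled library (5 of 33) and Ifit1, Ifit3 and Isg15 in the Dapl1-KO-labelled library (36 of 141). Among the other chosen cells it was Rsad2, Oasl1 and Isg15 (6 of 39) and Ifit1, Rsad2 and Isg15 (12 of 108). In total, 36 and 46 different sets occurred. The part of macrophage RNA in the rule genes of these cells was not tested.

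The start regions of most rule genes carry the element that the interferon-activated complex of STAT2 and IRF9 is known to bind, and they are shown because the choice of cells rests on these genes. Its letters, GAAA, any 2 bases and GAAA again, were searched on both strands in windows from 250 bases before to 50 bases after each gene's start, taken from RefSeq sequences of build GRCm38.p6. Of the rule genes, 6 had a window (Usp18 had no entry in the table), and 5 of these 6 held the letters, against 3.99% of 27025 genes. Oasl1 had no exact match. All 6 held them with 1 mismatch allowed, which 38.9% of all genes did. The stretches below run 5′ to 3′ on each gene's own strand and mark matches on either strand in capitals, with overlapping matches joined. They are chr19:34640744-34640858 for Ifit1, chr19:34583329-34583498 for Ifit3, chr19:34607757-34607926 for Ifit3b, chr12:26456483-26456652 (minus strand) for Rsad2, chr4:156200849-156201018 (minus strand) for Isg15 and, as a gene outside the rule, chr1:173599303-173599472 (minus strand) for Ifi213.
Ifit1: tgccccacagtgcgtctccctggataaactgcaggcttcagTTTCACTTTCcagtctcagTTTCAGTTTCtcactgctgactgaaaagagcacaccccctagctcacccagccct
Ifit3: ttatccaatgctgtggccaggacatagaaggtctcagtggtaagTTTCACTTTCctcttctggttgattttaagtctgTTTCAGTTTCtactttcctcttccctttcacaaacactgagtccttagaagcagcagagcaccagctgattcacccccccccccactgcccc
Ifit3b: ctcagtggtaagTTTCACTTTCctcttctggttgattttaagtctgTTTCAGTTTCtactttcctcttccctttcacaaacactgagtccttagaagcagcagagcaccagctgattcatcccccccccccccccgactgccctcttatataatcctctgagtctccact
Rsad2: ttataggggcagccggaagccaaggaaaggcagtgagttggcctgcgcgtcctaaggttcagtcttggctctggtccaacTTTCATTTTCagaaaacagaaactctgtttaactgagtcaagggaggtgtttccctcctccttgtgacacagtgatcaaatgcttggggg
Isg15: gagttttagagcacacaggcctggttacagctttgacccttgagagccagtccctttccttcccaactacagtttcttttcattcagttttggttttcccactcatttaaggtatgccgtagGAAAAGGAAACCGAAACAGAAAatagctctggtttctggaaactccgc
Ifi213: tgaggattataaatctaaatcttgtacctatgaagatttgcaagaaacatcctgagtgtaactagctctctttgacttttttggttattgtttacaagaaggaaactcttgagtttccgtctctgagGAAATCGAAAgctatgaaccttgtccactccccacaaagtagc
The stretches of Ifit1, Rsad2, Isg15 and Ifi213 lie upstream of the RefSeq start of transcription, and those of Ifit3 and Ifit3b lie upstream of their listed start but within a RefSeq gene span. The letters TTCNNNGAA, the element of the interferon gamma response, were in none of the 6 windows and in 9.55% of all genes. A match describes letters, not binding. Of interferon response genes outside the rule, 36 of 77 with a window held the element (46.8%), as did 9 of 10 interferon-gamma GTPases, 5 of 16 genes of MHC class I presentation, 1 of 16 exhaustion genes and 2 of 16 cytotoxic effector genes. The windows of Xaf1, Slfn1 and Irf7 held no exact match, and Rtp4 and Zbp1 had no entry.

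Interferon response genes that the rule did not use were higher in the chosen cells of both libraries. Of a list of 101 such genes, 95 were in the files, and 27 were measured at 50 CPM or more in chosen or matched cells of the WT-labelled library and 17 of these were at least 1.5-fold higher, none lower, with a median log2 ratio of 1.11. In the Dapl1-KO-labelled library, 16 of 29 were higher and none lower, with a median of 0.68. Over all genes at that level the medians were -0.11 and -0.01, and 12% (315 of 2619) and 7.12% (179 of 2513) were at least 1.5-fold higher, while 10.2% (268) and 0.597% (15) were lower. In macrophage-low cells, 22 of 34 list genes were higher and 1 lower in the WT-labelled library (median 1.03), and 19 of 31 were higher and none lower in the Dapl1-KO-labelled library (median 0.85). There, 6.88% (164 of 2384) and 2.86% (67 of 2341) of all genes were higher and 8.01% (191) and 1.03% (24) were lower. Genes of 1 response are detected together in 1 cell, so these counts are not independent of the rule. A gene entered a count only if it reached 50 CPM in chosen or matched cells, so genes that are high in chosen cells alone entered for that reason.

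Rtp4, which encodes a transporter-like protein that restrains viruses and the receptor-driven response, had the highest log2 ratio among list genes at 50 CPM or more in macrophage-low cells of the WT-labelled library. It was at 54.1 CPM in macrophage-low chosen cells and 3.33 CPM in their matched cells of the WT-labelled library, a log2 ratio of 4.02 (2.63 to 5.76), with a UMI in 48.5% and 5.05% of cells. In the Dapl1-KO-labelled library it was at 40.8 and 4.32 CPM, a log2 ratio of 3.24 (2.67 to 3.85), with a UMI in 39.7% and 7.33%. No single cell carried it, since the cell with most Rtp4 held 18.5% and 5.61% of its UMIs.

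Xaf1, a promoter of apoptosis, was at 70.1 CPM in macrophage-low chosen cells against 11.3 in matched cells, and at 55.0 against 12.8, which are log2 ratios of 2.63 and 2.10. Isg20, an RNA exonuclease, stood at 98.1 against 16.0 CPM and at 70.6 against 26.6 CPM (2.62 and 1.41). Zbp1, a sensor of Z-form nucleic acid that can start cell death, was found in 81.8% and 88.7% of macrophage-low chosen cells against 31.3% and 55.6% of matched cells. Its level was 144 against 26.6 CPM and 164 against 63.4 CPM (2.44 and 1.37). Slfn1, of the Schlafen family linked to quiescence of T cells, was at 58.1 against 14.6 CPM and 58.0 against 10.9 CPM (1.99 and 2.42). By the share of cells with a UMI, Slfn1, Xaf1, Zbp1, Rtp4 and Ifi206 were the 5 genes outside the rule that most resembled it, in that the smaller of the 2 libraries' differences between macrophage-low chosen and matched cells was largest for them.

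The PYHIN genes are a cluster for proteins that sense or bind DNA, and several reached 50 CPM in macrophage-low chosen but not matched cells, so no count is given. Ifi213 was at 66.1 against 7.98 CPM and at 40.5 against 8.77 CPM (log2 ratios 3.05 and 2.21), and Ifi206 had log2 ratios of 2.17 and 2.08. Ifi208 had log2 ratios of 2.99 and 1.76, and Ifi209 was at 82.1 against 16.6 CPM and 67.9 against 24.1 CPM. Over all chosen cells the log2 ratios of Ifi204 and Ifi207 were 3.30 and 3.37 in the Dapl1-KO-labelled library, and Ifi207 had 5.97 in the WT-labelled library. In macrophage-low chosen cells, however, Ifi207 had no UMI in either library, and Ifi204 had 3 and 16 UMIs, in 6.06% and 2.84% of cells. Ifitm3, a membrane protein that blocks viral entry, was higher over all chosen cells (3.11 and 2.30), yet only 6.06% and 9.93% of macrophage-low chosen cells held it, and 1 cell had 76.2% of its UMIs in the WT-labelled library. Cxcl10, a chemokine that attracts T cells, had log2 ratios of 2.50 and 2.88 in macrophage-low cells, but was found in only 5 of 33 and 31 of 141 of the chosen cells.

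Of the transcription factors of the response, 2 of 8 measured in macrophage-low cells of the WT-labelled library were at least 1.5-fold higher and 1 lower. In the Dapl1-KO-labelled library 1 of 7 was higher and none lower (medians 0.36 and 0.43). Of all genes, 6.88% and 2.86% were higher and 8.01% and 1.03% lower. In the WT-labelled library 1 of the 2 higher genes, Irf7, entered the count only through chosen cells. Irf7, the factor that amplifies type I interferon production, was at 52.1 CPM in macrophage-low chosen cells against 11.3 CPM in matched cells of the WT-labelled library (2.20), and at 44.7 against 13.1 CPM in the Dapl1-KO-labelled library (1.77). Stat2 and Irf9, under 50 CPM and so not counted, were at 26.0 and 14.9 CPM and at 30.0 and 21.4 CPM in these cells, with log2 ratios of 1.97 and 1.47 for Stat2 and 1.17 and 0.71 for Irf9. Rnf213 (a ubiquitin ligase), Trim30a and Parp14 (an ADP-ribosyltransferase) had log2 ratios between 1.17 and 1.72 in both libraries.

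**Figure D3:**
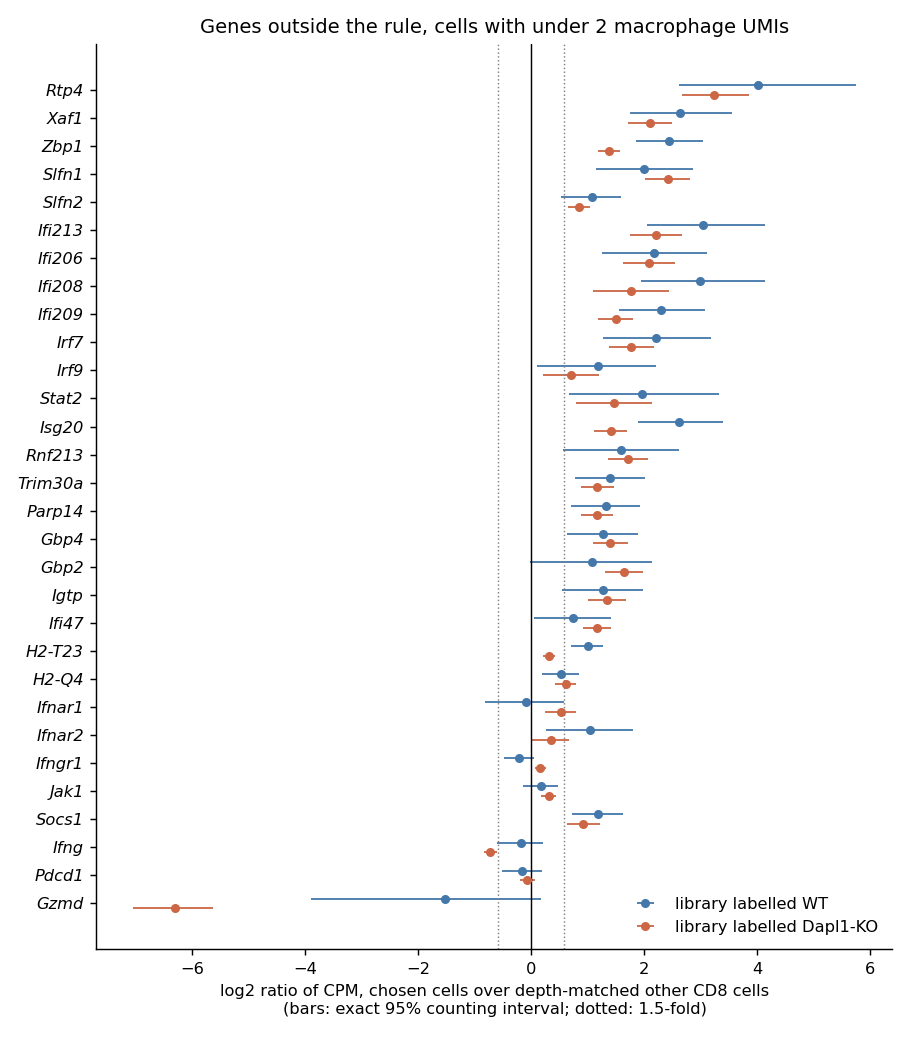
Log2 ratio of CPM between macrophage-low chosen cells and their depth-matched CD8 cells (x axis) for 30 genes outside the rule in each library, with exact 95% counting intervals and dotted lines at 1.5-fold. Rtp4 lies furthest right at 4.02 and 3.24. The receptor gene Ifngr1 and the kinase gene Jak1 lie within the dotted lines, and Gzmd lies far left in the Dapl1-KO-labelled library at -6.30.

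Interferon gamma is known to induce a family of GTPases and antigen presentation. Apart from Gbp7 in the WT-labelled library, the GTPase genes that reached 50 CPM in macrophage-low chosen cells did not in matched cells, so no count is given. Gbp4 had log2 ratios of 1.27 and 1.40, Igtp of 1.27 and 1.35, Ifi47 of 0.74 and 1.17, and Gbp2 of 1.08 (-0.02 to 2.13) and 1.64 (1.30 to 1.99). Of the genes for MHC class I presentation, 2 of 17 and 1 of 16 were at least 1.5-fold higher, against 6.88% and 2.86% of all genes. The medians of these MHC class I genes were 0.29 and 0.18. H2-T23, which encodes Qa-1, the ligand of the inhibitory receptor NKG2A, was at 350 against 176 CPM in the WT-labelled library and at 399 against 320 CPM in the Dapl1-KO-labelled library (0.32). H2-Q4 had log2 ratios of 0.52 and 0.61.

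Receptors, ligands and feedback inhibitors differed from gene to gene. Ifnar1 had log2 ratios of -0.09 (-0.82 to 0.59) and 0.52 (0.24 to 0.80) in macrophage-low cells, and Ifnar2 of 1.04 (0.26 to 1.80) and 0.35 (0.02 to 0.67). Ifngr1 (-0.21 and 0.16) and the kinase gene Jak1 (0.17 and 0.31) were within 1.5-fold in both libraries. Ifngr2, under 50 CPM, was at 32.0 against 6.65 CPM and 7.25 against 2.62 CPM, log2 ratios of 2.27 (1.04 to 3.57) and 1.47 (0.48 to 2.45). Of 11 ligand genes, Ifng alone reached 50 CPM. Ifnb1, which encodes interferon beta, had 39 UMIs in all chosen cells and 1 in matched cells of the WT-labelled library, and 12 and 0 in the Dapl1-KO-labelled library, in 8 and 7 chosen cells. Macrophage-low chosen cells held 2 and 0 of these. Ifng was at 136 against 155 CPM in the WT-labelled library (-0.19, interval -0.60 to 0.21) and at 281 against 464 CPM in the Dapl1-KO-labelled library (-0.72, interval -0.84 to -0.61). Over all chosen cells of the Dapl1-KO-labelled library the ratio of Ifng was -0.61, and 0.11 without the barcodes found in both libraries. The feedback inhibitor Socs1, which blocks JAK kinases, was at 146 against 64.5 CPM and at 62.6 against 33.0 CPM (1.18 and 0.92). Cish had log2 ratios of 0.59 and 1.01, and Socs3 of 0.68 and 0.45.

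Rtp4, Zbp1 and the summed interferon response genes outside the rule were higher in cells with at least 4 rule genes than in cells with none. The groups were made by the rule genes themselves and were not matched for depth, so these levels describe the cells and test nothing. Among macrophage-low gated CD8 cells of the WT-labelled library with 0, 1, 2, 3 and at least 4 rule genes (3127, 843, 139, 20 and 13 cells), Rtp4 was at 3.36, 3.50, 9.25, 29.5 and 126 CPM. In the Dapl1-KO-labelled library (3056, 1296, 318, 91 and 50 cells) it was at 4.45, 5.56, 11.9, 19.8 and 104 CPM. Most of the increase thus lay above the limit of 3 genes in both libraries. The summed list of interferon response genes outside the rule was at 2696, 2812, 3196, 3938 and 8627 CPM in the WT-labelled library and at 3414, 3563, 4267, 4704 and 8531 CPM in the Dapl1-KO-labelled library. Zbp1 ran from 33.0 to 300.2 CPM and from 59.5 to 311 CPM between cells with none and with at least 4 rule genes. MHC class I genes ran only from 8362 to 9464 CPM and from 10331 to 11721 CPM. Cells with at least 4 rule genes had the lowest summed proliferation genes (1778 and 3354 CPM) and the lowest Ifng (94.8 and 192 CPM) of the 5 groups in both libraries.

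**Figure D4:**
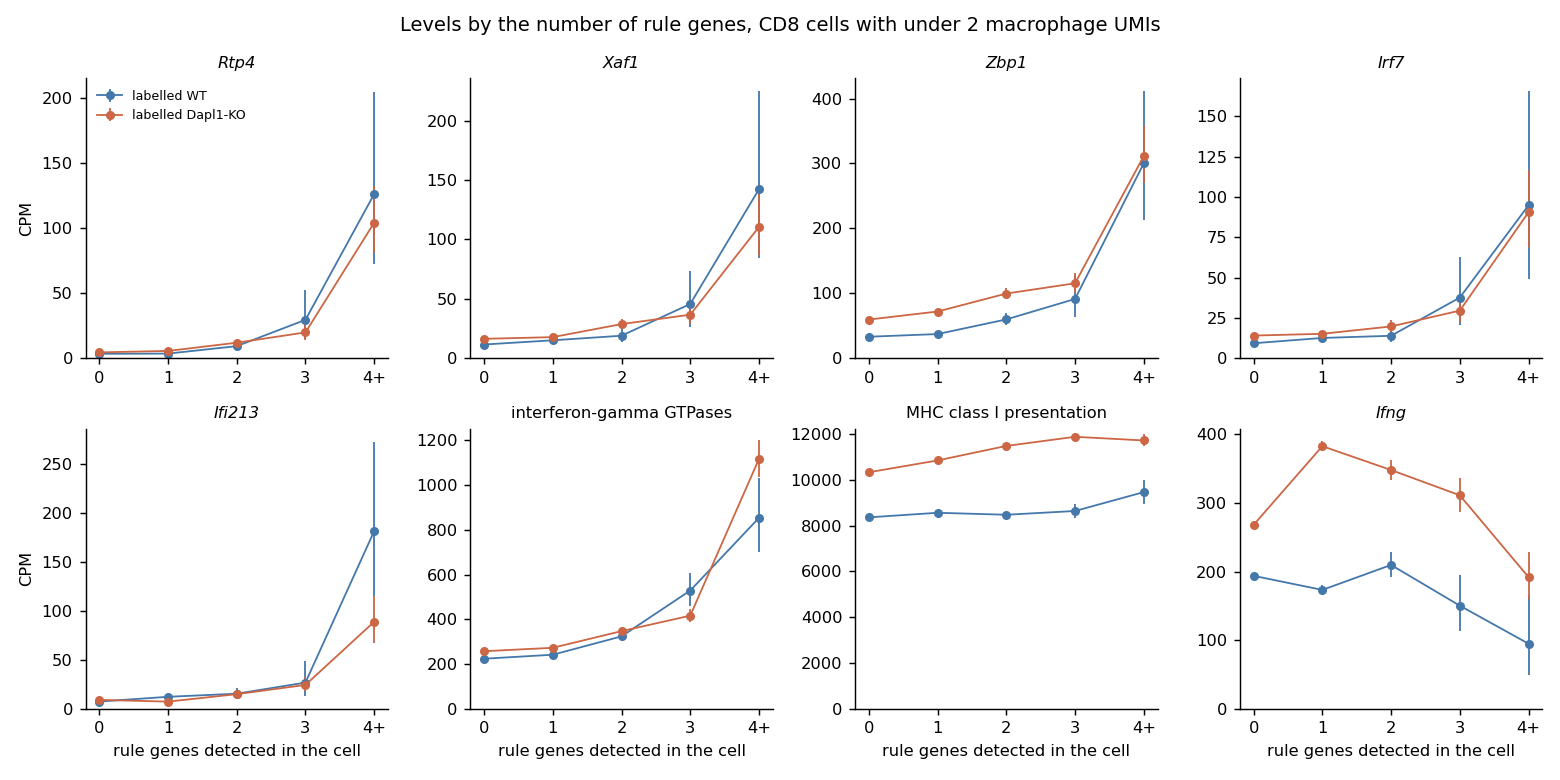
Summed CPM (y axis, each panel with its own scale from 0) of 6 genes and 2 gene lists in macrophage-low CD8 cells with 0, 1, 2, 3 or at least 4 rule genes detected (x axis), for each library, with exact 95% counting intervals. Rtp4 climbs from 3.36 to 126 CPM and from 4.45 to 104 CPM, MHC class I genes stay within 8362 to 9464 CPM and 10331 to 11881 CPM, and Ifng is lowest at the right end.

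Cytotoxic genes differed in direction. The list had 9 of 16 measured members at least 1.5-fold lower in all chosen cells of the WT-labelled library and 6 of 15 in the Dapl1-KO-labelled library, with 1 higher in each, where 10.2% and 0.597% of all genes were lower. In macrophage-low cells, 3 of 12 and 6 of 15 were lower, against 8.01% and 1.03% of all genes. Of this list, 12 genes reached 50 CPM in macrophage-low chosen cells of at least 1 library. Some of the 15 therefore entered the count only through matched cells, where they are high. Gzma, the 1 cytotoxic gene that was higher there in the Dapl1-KO-labelled library, had a log2 ratio of 1.02, and -2.50 in the WT-labelled library. Gzmd, a granzyme of strongly stimulated T cells, was at 6.87 CPM in macrophage-low chosen cells against 542 CPM in matched cells of the Dapl1-KO-labelled library (-6.30), and was found in 4.96% against 13.0% of the cells. In the WT-labelled library it was near its limit of detection, at 6.01 against 17.3 CPM (-1.53, interval -3.89 to 0.18). Gzme had log2 ratios of -1.11 (-4.30 to 1.03) and -4.19, and Gzmc of -0.75 and -1.43. Ccl1, a chemokine of activated T cells, had 11 UMIs in 141 macrophage-low chosen cells of the Dapl1-KO-labelled library and was at 127 CPM in matched cells (-4.92). The ratio of Ccl1 over all chosen cells was -3.07, and 1.58 without the barcodes found in both libraries. Gzmb, the main granzyme of killer cells, did not follow these: it was at 815 against 672 CPM (0.28) and at 2342 against 2392 CPM (-0.03), although in the WT-labelled library 1 cell held 54.8% of its UMIs. Of exhaustion genes, 5 of 14 were lower in macrophage-low chosen cells of the WT-labelled library and 0 of 12 in the Dapl1-KO-labelled library. Pdcd1, which encodes the checkpoint receptor PD-1, had log2 ratios of -0.16 (-0.52 to 0.20) and -0.07 (-0.20 to 0.06), and Havcr2 (TIM-3) of -0.44 and -0.07. With each cell weighted equally, the ratios in the WT-labelled library were -0.69 for Pdcd1 and -1.19 for Havcr2. Proliferation genes were lower in 17 of 21 and 3 of 21 over all chosen cells, and in 3 of 13 and 0 of 21 over macrophage-low cells. Of these genes, 19 reached 50 CPM in chosen cells of at least 1 library, so some of each 21 entered only through matched cells.

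Chosen cells occurred in each of the 5 CD8 states examined. States were gates on detected genes. Of macrophage-low chosen cells of the WT-labelled library, 17 of 33 (51.5%, interval 33.5 to 69.2) met the naive or central memory gate (no Pdcd1 or Havcr2 and at least 2 of 5 genes of resting T cells), against 39.4% of 99 matched cells. In the Dapl1-KO-labelled library, 20.6% of 141 did, against 21.3% of 423. The gate with Pdcd1 and Havcr2 both detected held 15.2% against 32.3% in the WT-labelled library and 39.7% against 41.1% in the Dapl1-KO-labelled library. Cells with Ly6c2 or Gzma and no Pdcd1 made up 42.4% against 28.3% and 31.2% against 30.3%. Cycling cells made up 12.1% against 20.2% and 26.2% against 30.7%. With 33 cells, the intervals of chosen and matched cells overlapped for each state in the WT-labelled library. Such an overlap does not show that there is no difference, and no interval of the difference is given, so none is claimed. Read the other way, the rule was met at full depth by 0.369% to 1.25% of macrophage-low cells of a state in the WT-labelled library and by 2.52% to 3.10% in the Dapl1-KO-labelled library. The states differ in depth, from a median of 7204 UMIs for Ly6c2 or Gzma without Pdcd1 to 26148.5 for cycling cells in the Dapl1-KO-labelled library. After thinning, the cells with Ly6c2 or Gzma and no Pdcd1 met the rule in 0.384% and 1.24%, and those with Pdcd1 and Havcr2 in 0.0637% and 0.397%.

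The chosen cells of the libraries were also compared with each other. Over all chosen cells, 9.43% of 2619 genes were at least 1.5-fold higher in the Dapl1-KO-labelled library and 7.60% were lower. Over macrophage-low chosen cells, 21.1% of 2497 genes were higher and 8.53% lower. The summed rule genes differed by -0.12 on the log2 scale over all chosen cells and by 0.08 over macrophage-low ones. Of interferon response genes outside the rule, 5 of 36 were higher and 2 lower in macrophage-low chosen cells of the Dapl1-KO-labelled library, with a median of 0.00 against 0.19 over all genes. Rtp4 (-0.40, interval -1.02 to 0.26), Xaf1 (-0.35, -0.89 to 0.23) and Slfn1 (0.00, -0.58 to 0.63) had intervals that reached 0, with Slfn1 at 0.67 (82.5 and 131 CPM) when each cell was weighted equally, while Ifi208 was lower (-1.82, -2.54 to -1.09). In the matched cells Zbp1 was higher in the Dapl1-KO-labelled library (1.25).

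Gzma, a granzyme of cytotoxic lymphocytes, stood apart. It was at 18.0 CPM in macrophage-low chosen cells of the WT-labelled library (9 UMIs in 8 of 33 cells) and at 387 CPM in those of the Dapl1-KO-labelled library (1015 UMIs in 64 of 141 cells), a log2 ratio of 4.43 (3.50 to 5.56). In matched cells the ratio was 0.91 (0.67 to 1.16), with 102 and 191 CPM. Over all chosen cells the levels were 13.2 and 315 CPM (4.58). Klre1, an NK receptor gene, was at 16.0 and 117 CPM in macrophage-low chosen cells (2.87), against 39.9 and 122 CPM in matched cells (1.62). Areg, which encodes the growth factor amphiregulin, had 0 UMIs in macrophage-low chosen cells of the WT-labelled library and 431 in 22 cells of the Dapl1-KO-labelled library, so it was at least 4.78 higher on the log2 scale with the floor of 3 counts taken over the group. Its ratio in matched cells was 7.03 (5.17 to 10.08), with 2 UMIs in the WT-labelled library. The ratio of Areg over all chosen cells was 2.83, and -0.95 among cells chosen after thinning to 3000 UMIs. Gzmb (1.52) and the pore-forming Prf1 (2.30) were also higher and had ratios of 1.83 and 1.78 in matched cells. Of 12 cytotoxic genes measured, 9 were higher in macrophage-low chosen cells of the Dapl1-KO-labelled library and none lower. Of 19 proliferation genes, 17 were higher there, where 21.1% of 2497 genes were higher and 8.53% lower. In matched cells 12 of 15 and 8 of 20 were higher, where 11.4% of 2359 genes were higher and 4.58% lower. Only 12 cytotoxic and 13 proliferation genes reached 50 CPM in macrophage-low chosen or matched cells of the WT-labelled library. Some of the 19 proliferation genes, and some of the 15 and 20 in matched cells, therefore entered only through the Dapl1-KO-labelled library, where they are high.

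Genes of resting cells went the other way. Of the naive or central memory list, 10 of 11 were lower in macrophage-low chosen cells of the Dapl1-KO-labelled library (median -1.73), and 8 of 9 were lower in matched cells (median -0.99). Of all genes, 8.53% were lower in those chosen cells and 4.58% in matched cells. Only 5 genes of the list reached 50 CPM in macrophage-low chosen or matched cells of the Dapl1-KO-labelled library. Most of the 11 and several of the 9 therefore entered the counts only through the WT-labelled library, where they are high. Klf2, a factor that keeps T cells quiescent and able to recirculate, was at 1051 and 197 CPM in macrophage-low chosen cells (-2.41) and at 426 and 216 CPM in matched cells (-0.98). Tcf7, the factor of stem-like T cells, had ratios of -1.88 and -1.29. Id3, a repressor found in memory precursors, was at 244 and 21.8 CPM (-3.49), against -1.62 in matched cells, and Igfbp4 at 56.1 and 3.05 CPM (-4.20), against -2.13. The heat-shock gene Hspa1a was at 1512 and 215 CPM (-2.82), with a larger difference in matched cells (-3.14). Chosen and matched cells come from the same 2 libraries, so both ratios share whatever separates those libraries.

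Cells of other lineages met the 3-of-7 rule as well. Macrophage-gated cells did so most often, in 9 of 22 (40.9%, interval 20.7 to 63.6) and 7 of 53 (13.2%, interval 5.48 to 25.3). Conventional CD4 T cells met it in 7 of 606 (1.16%) and 21 of 591 (3.55%), a direction like that of CD8 cells, and with macrophage-low cells only in 6 of 566 (1.06%) and 16 of 540 (2.96%). Regulatory T cells went the opposite way at 11 of 439 (2.51%) and 5 of 500, with overlapping intervals (1.26 to 4.44 and 0.325 to 2.32). NK cells met it in 1.09% and 0.853%, and gamma-delta T cells in 1.48% and 2.03%, again with overlapping intervals. None of 4 and 9 melanocytic tumour cells did, with intervals that reach up to 60.2% and 33.6%. CD4 cells were shallower than CD8 cells, with medians of 5312 and 5378 UMIs, and after thinning they met the rule in 0.283% and 2.14%.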

How the data were processed

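UMI counts per gene and barcode were deposited by the authors for 2 libraries, made with 10x Genomics 3′ v3 chemistry per the labels, with no normalization and 32285 genes. Cell Ranger 5.0.0, mm10 and GRCm38 are named in the submitters' processing notes. The libraries held 154408101 and 206322042 UMIs over 16673 and 19662 barcodes. Of barcodes in both libraries only a copy with at least 2 times the UMIs of the other was kept, and cells needed at least 500 genes and at most 10% mitochondrial UMIs. The cells, gene lists and rule were chosen with earlier results of these data known.

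Counts were summed over cells and given as CPM. Log2 ratios have exact intervals of a ratio of 2 Poisson counts, with a floor of 3 counts in place of 0, and no ratio is given where both counts are at or under 3. A gene counts as higher or lower at 1.5-fold or more, among genes at 50 CPM or more in either group. Shares have Clopper-Pearson intervals, differences of shares Newcombe intervals. Intervals cover counting error only, and cells are not replicates: with 1 library per label no test was run. Thinned shares are exact expectations at 3000 UMIs, state shares means of 50 draws, and thinned gene ratios rest on 1 draw.

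Named genes are the rule genes, the ends of each ranking (20 highest and 12 lowest over matched cells, 10 and 10 between labels, in the order of the smaller or larger ratio of the 2 libraries), up to 4 genes per list and a fixed set of interferon, checkpoint and effector genes. The fibroblast list and other list members named were picked after their values were seen. Antigen receptor, immunoglobulin, haemoglobin, sex-linked, mitochondrial, ribosomal, unnamed and lineage genes were left out of the rankings. Scrublet (scanpy 1.11.5) called 0 cells by its own threshold, so the highest scores were marked at 0.8% per 1000 cells (853 and 1086 cells), and doublets were removed only as an alternative. The calculation was tested on simulated Poisson totals of each group with 200 changed genes. For macrophage-low chosen over matched cells in the WT-labelled library, 94.0% of 2-fold changes among 2123 genes passed the 1.5-fold limit. Of their intervals, 92.5% held the true value. The intervals use the same Poisson model, and the simulation had no spread between cells. It therefore says nothing about genes whose UMIs lie mostly in 1 cell. Python 3.11.15, numpy 2.4.6, scipy 1.17.1 and pandas 2.3.3 were used.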

Additional observations from a re-analysis of the deposited data

Results flagged for a closer look

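Gzma went in opposite directions in the 2 libraries when chosen cells were set against their depth-matched CD8 cells. Over all chosen cells its log2 ratio was -3.03 in the WT-labelled library and 0.80 in the Dapl1-KO-labelled library. The direction in the Dapl1-KO-labelled library depended on the matching. Against all other gated CD8 cells the ratio of Gzma there was -0.17. Over macrophage-low cells, with matched cells, the ratios were -2.50 and 1.02. Of the macrophage-low chosen cells, 24.2% and 45.4% had a Gzma UMI, against 11.1% and 33.8% of matched cells, so in the WT-labelled library the share of cells with a UMI and the summed level point in opposite directions. There is 1 library for each label, and the difference was not tested.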

How the results depend on the processing

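The higher share of chosen cells in the Dapl1-KO-labelled library (2.64 points) kept its direction under every alternative run, between 0.649 points after thinning to 3000 UMIs and 7.01 with at least 2 of 7 rule genes; it was 0.949 with at least 4, 1.99 without barcodes found in both libraries and 0.706 with thinning and the macrophage limit together. Of 1790 values of single genes under these alternatives, 10 reversed, 198 crossed the 1.5-fold limit or changed sign from within it, and 1582 did neither. Counts of genes depend on most choices. In the order higher WT, lower WT, higher Dapl1-KO and lower Dapl1-KO (chosen over matched cells: 315, 268, 179 and 15), then higher and lower between labels (247 and 199), the counts that moved by over 1.5 times were as follows. At least 2 rule genes gave 39 lower WT, 116 higher and 1 lower Dapl1-KO, and 149 and 118 between labels; at least 4 gave 595, 507, 271 and 79, and 418 and 389. Thinning gave 612, 445, 338 and 118, and 865 and 445. A minimum of 20 CPM gave 769, 553, 427 and 39, and 494 and 479. The macrophage limit gave 164 higher WT, 67 higher and 24 lower Dapl1-KO, and 528 higher between labels; without Fcer1g in that limit the counts were 179 higher WT, 62 higher Dapl1-KO and 596 higher between labels. Without cells over 50000 UMIs, 37 were lower in Dapl1-KO and 424 higher between labels. The count of lower genes in Dapl1-KO was 25 with every barcode kept, 124 without shared barcodes and 25 with means over cells, which also gave 414 higher between labels. Against all other CD8 cells 86 were lower in WT, and against cells with no rule gene 284 were higher and 61 lower in Dapl1-KO. Without mitochondrial and ribosomal genes in the total, 514 were lower in WT, 43 lower in Dapl1-KO and 365 lower between labels.

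The median of the interferon list (1.11 in WT, 0.68 in Dapl1-KO) was 0.24 in WT with at least 2 rule genes, 1.70 with at least 4, 1.96 (log2) after thinning, and in Dapl1-KO 1.40 without shared barcodes, 1.69 after thinning and 1.31 with means over cells. The difference in the PD-1 and TIM-3 gate in WT went from -16.7 to -2.27 points after thinning. Thinning left 0.283% and 2.14% of CD4 cells, 0.504% and 0.184% of regulatory T cells and 0.193% of NK cells (Dapl1-KO) meeting the rule. With 1 mismatch, 38.9% of genes held the response element in place of 3.99%.

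Reversed values over matched cells were Gzmb in WT under the macrophage limit with and without Fcer1g (0.28 and 0.30, from -1.09), Ifng and Ccl1 in Dapl1-KO without shared barcodes (0.11 and 1.58), Tcf7 in WT with at least 4 rule genes (-0.11) and after thinning (-0.52), Socs1 and Klf2 in WT after thinning (-0.016 and -0.20), Gzma in Dapl1-KO against all other CD8 cells (-0.17), and the naive list's median in Dapl1-KO under the macrophage limit (-0.13) and after thinning (-0.20). Areg between labels was -0.95 after thinning. The cause was not tested. The limits over macrophage genes without Fcer1g and over 50000 UMIs, and the 2 combined settings, were chosen after seeing the data. No gene values are given for WT without shared barcodes (11 cells) or among Y-linked cells (6 cells). Thinned WT ratios rest on 26 cells. No paired analysis was possible because each label has 1 library.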

Other observations

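Genes that head the macrophage-low ranking beside the interferon genes came from few cells. Zmynd15 had 25 UMIs in the WT-labelled library, all in 1 of 33 cells, and 86.7% of its 15 UMIs in the Dapl1-KO-labelled library lay in 1 of 141. Tbc1d4, a regulator of glucose transport, had 97.8% and 55.8% of its UMIs in 1 cell, and the chemokine gene Cxcl16 was found in 2 and 6 cells. The MHC class II genes H2-Aa and H2-Eb1, which are characteristic of antigen-presenting cells, were found in 2 and 5 of 33 macrophage-low chosen cells of the WT-labelled library and in 8 and 9 of 141 of the Dapl1-KO-labelled library. In all chosen cells they were found in 20 and 24 of 72 and in 70 and 66 of 249.

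The heat-shock gene Hspa1a was higher in macrophage-low chosen than in matched cells of both libraries, with log2 ratios of 1.08 (0.94 to 1.21) and 1.40 (1.23 to 1.57), and Hspa1b had 0.35 and 1.51. Of the 10 heat-shock genes measured, 1 was at least 1.5-fold higher in the WT-labelled library and 2 were in the Dapl1-KO-labelled library. Of all genes, 6.88% and 2.86% were. The survival gene Mcl1 had log2 ratios of 0.48 and 0.43.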
